A study of Drosophila melanogaster with 2 samples.

Results

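The 10 genes described here encode the everyday actin and microtubule skeleton of Drosophila melanogaster cells: Act5C, Act42A, alphaTub84B, alphaTub84D, betaTub56D, chic, tsr, zip, sqh and Moe. They were chosen by symbol among 13945 protein-coding genes on 6 chromosome arms (Ensembl release 115, dm6), as a set of genes that most cells use and that lies outside translation. Binding of the homeobox protein CG9876 was profiled by chromatin immunoprecipitation with an anti-GFP antibody in whole embryos of both sexes, aged 0 to 24 h, from a transgenic fly line in which GFP is attached to the C terminus of CG9876. There was 1 group with 2 biological replicates and no treatment, so no condition could be compared with another. The authors gave 30000 candidate regions for each replicate and 30000 for both combined, and 2433 reproducible peaks drawn from them. For each gene, every region counted whose summit lay in the gene body or within 1 kb of any transcription start site (TSS). The height of a region is the signal value of the authors' lists, in their own unit. How it was normalized is not stated, so ranks, not heights, are compared between lists.

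Actin filaments grow from ATP-bound monomers, and microtubules from dimers of alpha and beta tubulin. Act5C and Act42A encode the cytoplasmic actins, whereas other actin genes of the fly serve mainly muscle. Profilin, encoded by chic, delivers monomers to growing filament ends, and cofilin, encoded by tsr, takes old filaments apart. Non-muscle myosin II pulls on filaments, with its heavy chain encoded by zip and its regulatory light chain by sqh. Moesin, encoded by Moe, ties filaments to the plasma membrane.

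Of the 10 genes, 6 had a reproducible summit within 1 kb of a TSS, namely Act5C, alphaTub84B, betaTub56D, chic, tsr and Moe, against 15.8% of all protein-coding genes. Act42A, alphaTub84D, zip and sqh had none. Counting the gene body as well left the count at 6, against 18.0% of all genes. The strongest 2433 regions of replicate 1 marked 6 of the 10 promoters, with 15.8% of all genes, and those of replicate 2 marked 5, with 15.3%, without tsr. In replicate 2 chic counted through another region than its reproducible peak, so 4 of the 6 genes had a reproducible promoter peak among its strongest 2433 regions. These are counts over a small set of genes picked by name, and no set test was made. All 10 genes had some candidate region in the combined list within 1 kb of a TSS, as did 61.3% of all genes, and 69.8% did when gene bodies were included, so a candidate alone says little. RNA was not measured, and in whole embryos more bound cells and more binding per cell cannot be told apart.

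**Figure D1:**
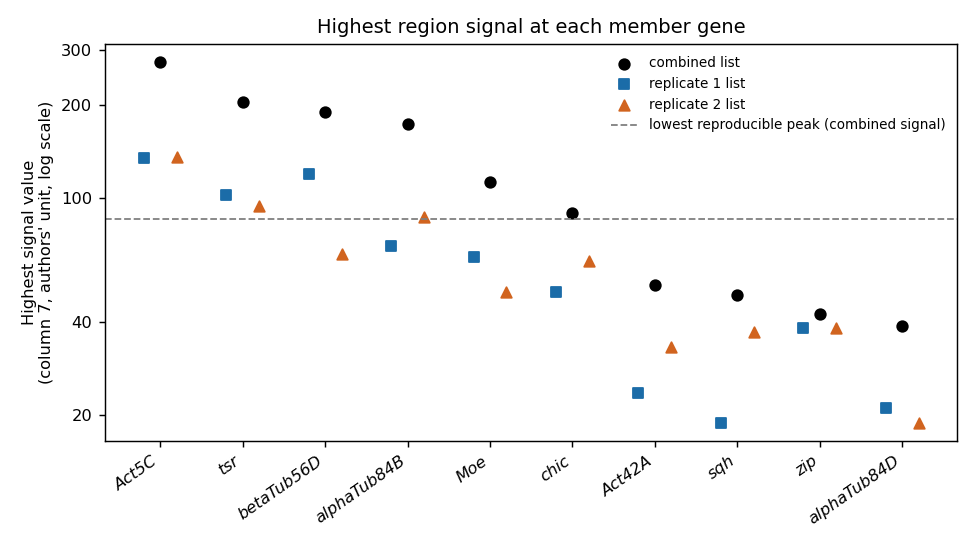
The highest signal value of any region at each gene (y axis, authors' unit, log scale), as circles for both replicates combined, squares for replicate 1 and triangles for replicate 2, with genes ordered by the combined value. The dashed line is the weakest reproducible peak, at 85.4 in the combined list; 6 genes lie above it and 4 below, and the combined values run from 274.9 at Act5C to 38.6 at alphaTub84D.

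Act5C had the highest value of the set in all 3 candidate lists, at 274.9 for both replicates combined, 135.2 for replicate 1 and 135.5 for replicate 2. The order below it was not fixed. Replicate 1 placed betaTub56D (120.1) above tsr (102.1) and alphaTub84B (70.2), whereas replicate 2 placed tsr (94.4) above alphaTub84B (87.2) and betaTub56D (66.3). Moe and chic also swapped, with 64.8 and 50.0 in replicate 1 and 49.9 and 62.7 in replicate 2. The 6 genes with reproducible peaks stayed above the other 4 in both replicates. The lowest of the 6 stood at 50.0 in replicate 1 and 49.9 in replicate 2, and the highest of the 4, zip, at 38.2 and 38.1. In replicate 1 the betaTub56D and chic values came from summits nearer to the TSS of a neighbour, CG7744 and eIF4A. The highest regions nearest to their own TSSs stood at 31.2 and 25.9 there, below zip. In replicate 2 such regions stood at 56.1 and 62.7, above zip. The reproducible list was itself derived from these replicate lists, so the separation of the 6 from the 4 is a description. Over the 10 genes the median of the highest combined signal was 101.1, against 50.4 over the 9727 genes that had any region by the same rule.

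Act5C lies on chromosome X (chrX:5900861-5905399, plus strand), has 2 TSSs and held 2 reproducible peaks. The stronger one (chrX:5900102-5900282, summit 5900202) lay 659 bp upstream of the first TSS, with rank 260 among the combined candidates, 292 in replicate 1 and 239 in replicate 2. The replicate summits were 2 bp apart. The region was 181 bp wide, narrower than the median of 370 bp, and widths under 200 bp occurred in 10.1% of reproducible peaks. No protein-coding TSS was nearer than that of Act5C itself, but the 5' end of a non-coding gene, lncRNA:CR45668, which runs the other way, lay 213 bp from the summit. The second peak (chrX:5901839-5902208) lay 42 bp inside the exon that starts at the second TSS, in the 5' UTR. Its signal was 105.4, with 50.6 in replicate 1 and 56.4 in replicate 2, and its summits were 155 bp apart, the widest gap among the 10 peaks of the set. Both Act5C peaks ranked among the strongest 2433 regions of each replicate.

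The bases around the upstream Act5C summit and at the second Act5C TSS are shown in the direction of transcription. They mark the highest signal of the set and the start of an Act5C transcript. They come from the RefSeq copy of dm6 (chrX:5900102-5900302 and chrX:5901924-5902011). Motifs were searched 100 bp to either side of a summit, and a printed window ends at the latest 30 bases past the TSS. The second printed window therefore stops short of its summit, which lay 42 bp past the TSS. Capitals mark each match, on either strand, and the only ones found in the full windows were GAGAG in the first window and the initiator TCAGT in the second.
Act5C upstream summit: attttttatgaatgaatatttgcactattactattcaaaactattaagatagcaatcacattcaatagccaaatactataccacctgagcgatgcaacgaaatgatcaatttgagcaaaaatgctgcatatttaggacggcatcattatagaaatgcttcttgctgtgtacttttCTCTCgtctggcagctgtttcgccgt
Act5C second TSS summit: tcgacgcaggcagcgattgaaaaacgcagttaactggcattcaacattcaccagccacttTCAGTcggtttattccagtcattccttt
GAGAG occurred in 25.7% of all reproducible windows of this length and TCAGT in 34.2%. The GAGAG match reads CTCTC because it is on the other strand. Besides these, the motifs searched were DRE (TATCGATA) and the core CGATA within it, which BEAF binds, then Ohler motif 1, spelled GGTCACACT, and the TATA box, searched as TATAAA. The homeodomain core was searched as TAATTA, beside a longer paired-class homeodomain dimer, and the E-box as CACGTG.

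Act42A (chr2R:6013910-6015689, minus strand), with 1 TSS, had no reproducible peak. Its highest candidate lay 73 bp upstream of the TSS with a combined signal of 52.5 (rank 6118, authors' q-value 0.15). Replicate 2 listed a region there at 33.2, and replicate 1 listed none over that summit. Replicate 1 did list a region at 23.6, 263 bp upstream. The value 52.5 is close to the 50.1 that was the median of the highest promoter signal over the 8544 genes with any promoter region.

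The proteins of Act5C and Act42A, translated from the gene models, have 376 residues each and differ at 2 of them (99.5% identical). Their coding bases were 86.2% identical, with 35 bases as the longest shared stretch. The muscle actins differed from Act5C at 12 to 16 residues. In coding bases they were closer to Act5C than Act42A was. They were 88.0% to 91.0% identical to it, with longest shared stretches of 40 to 77 bases. None of Act57B, Act79B, Act87E and Act88F had a reproducible promoter peak. Where they had a promoter candidate, the combined signal was at most 31.4, at Act87E, and Act57B had none in the combined list. Because reads from near-identical copies can be placed at the wrong gene, runs of 50 bases were looked up across the 6 arms. No 50-base run under a combined Act5C or Act42A region recurred elsewhere. Read length and the treatment of repeated reads are unknown here.

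The alpha tubulin pair also had 1 gene with a reproducible peak and 1 without. alphaTub84B (chr3R:7086599-7088839, plus strand) had 1 reproducible peak (chr3R:7086457-7086826), 43 bp downstream of its only TSS, in the 5' UTR. Its signal was 173.0 with both replicates combined, 70.2 in replicate 1 and 87.2 in replicate 2, with ranks 690, 1122 and 659. The replicate summits lay 29 bp apart. alphaTub84D (chr3R:7530753-7532732, plus strand) encodes a protein that differs from it at 2 of 450 residues (99.6% identical). It had 1 region in the combined list, at 38.6 (rank 13404, authors' q-value 0.53), 834 bp downstream of the TSS in coding sequence. Replicate 1 gave 21.1 and replicate 2 gave 15.7 at that place. Replicate 2 listed 2 more regions, at 18.9 further into the coding sequence and at 15.3 upstream, the latter 50 bp from the TSS of the neighbouring gene Rtnl2. None of these lay at the alphaTub84D TSS itself.

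The start regions of both genes are set side by side, since their coding sequences are nearly alike and their listed regions were not. Both windows run along the gene from 100 bp before the TSS to 30 bases past it (chr3R:7086499-7086628 and chr3R:7530653-7530782), with motif matches in capitals.
alphaTub84B TSS: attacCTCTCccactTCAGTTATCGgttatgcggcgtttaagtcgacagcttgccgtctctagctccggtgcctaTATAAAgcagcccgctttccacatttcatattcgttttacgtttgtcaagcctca
alphaTub84D TSS: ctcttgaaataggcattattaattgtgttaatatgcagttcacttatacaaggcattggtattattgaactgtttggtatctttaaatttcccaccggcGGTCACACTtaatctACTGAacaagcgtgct
The first holds a TATA box, TATAAA, whose first base lies 25 bp upstream of the alphaTub84B TSS. Further upstream it holds GAGAG on the other strand and TCAGT next to CGATA on the other strand. The second holds Ohler motif 1, GGTCACACT, starting 1 bp upstream of the TSS, and TCAGT on the other strand.

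Shared sequence touched the alpha tubulin regions only inside genes. The coding sequences of the pair were 92.2% identical, with a shared stretch of 126 bases. In the alphaTub84D candidate 24% of the 50-base runs recurred elsewhere on the arms, so its value of 38.6 is uncertain. In the alphaTub84B promoter peak none did, and in its 3 coding-exon candidates, with combined signals from 34.1 to 43.1, at most 0.623% did.

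betaTub56D (chr2R:19447319-19451600, minus strand) encodes the beta tubulin found in most cells. The higher of its 2 reproducible peaks lay 856 bp upstream of its first TSS, at 189.9 combined, 120.1 in replicate 1 and 66.3 in replicate 2. That summit was 48 bp from the TSS of the neighbouring gene CG7744, which is transcribed away from betaTub56D, and the region was 116 bp wide. The other peak was its own promoter peak, 31 bp upstream of the TSS, with a combined signal of 99.9. There the replicates ranked apart, at 4796 in replicate 1 (31.2) and 1649 in replicate 2 (56.1). It was the only one of the 10 reproducible peaks outside the strongest 2433 regions of replicate 1.

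**Figure D2:**
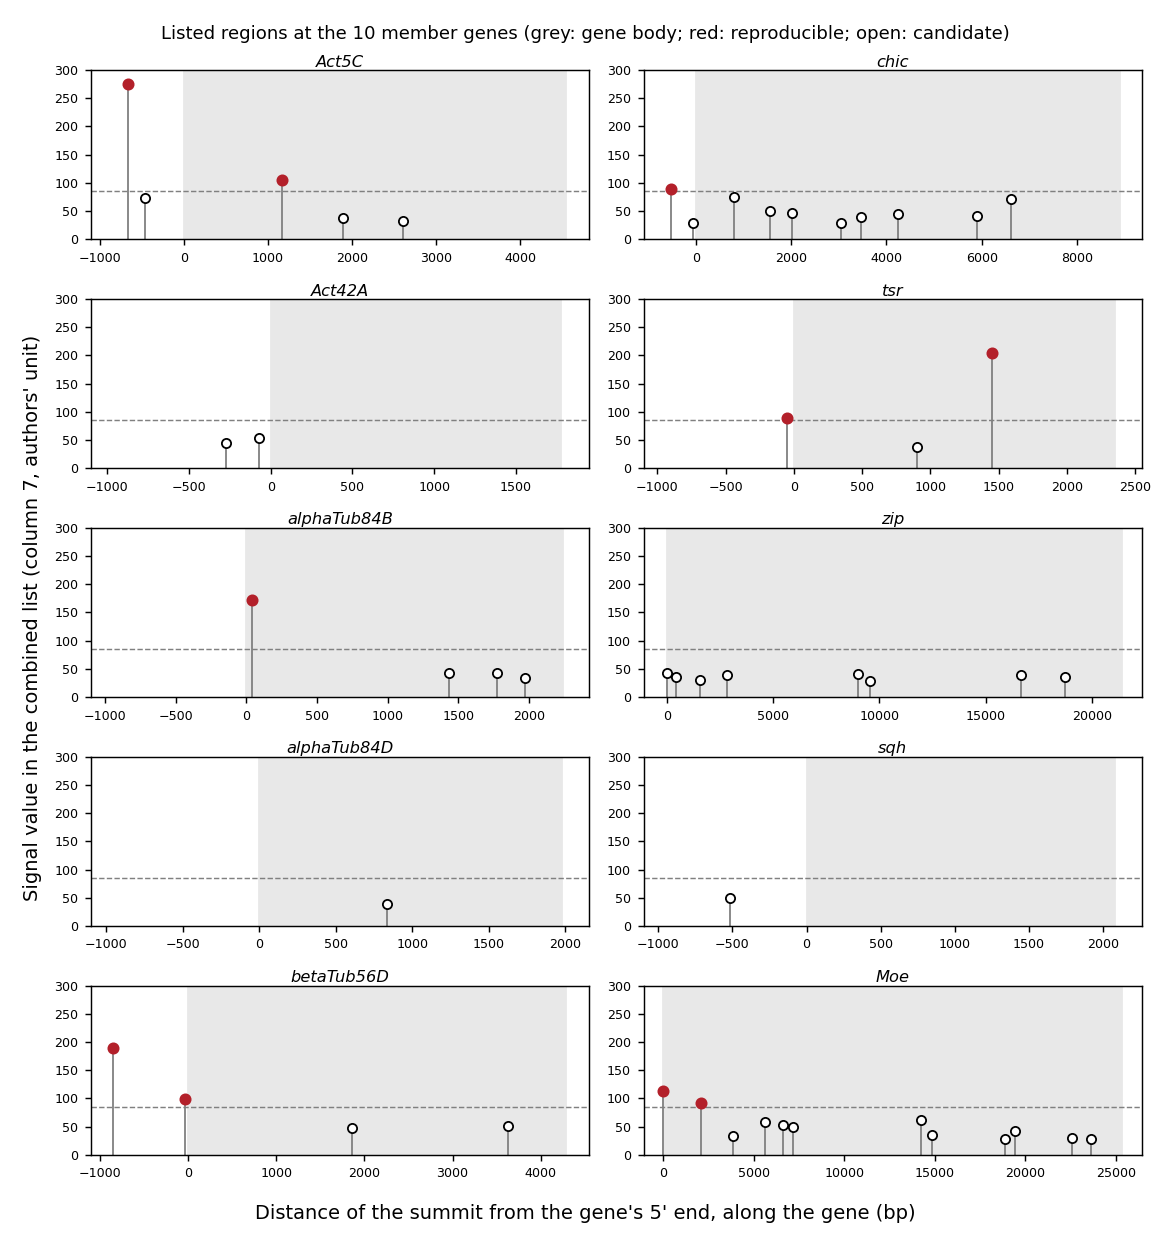
Signal value in the combined list (y axis, authors' unit) against the distance of each summit from the gene's 5' end along the gene (x axis, bp), 1 panel per gene, with the gene body in grey. Red points are the 10 reproducible peaks, open points the 40 other candidates, and the dashed line the weakest reproducible peak at 85.4; the red points lie upstream, near a TSS or in introns, and 14 of the open points lie in coding exons.

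The actin turnover genes chic and tsr were both marked, in different ways. The chic peak (chr2L:5981359-5981728) was among the weakest reproducible ones, with a combined signal of 89.4 (rank 2270), 50.0 in replicate 1 and 40.6 in replicate 2. It lay 526 bp upstream of the first of 3 chic TSSs. It was closer, at 220 bp, to the TSS of eIF4A, which encodes a helicase of translation initiation and runs the other way. With each summit given only to the gene with the nearest TSS, chic lost its peak. In replicate 2 the highest chic region was another one, 122 bp upstream of an internal TSS, with 62.7 and rank 1299, and replicate 1 listed no region over it. In the combined list that place stood at 74.9, just below the weakest reproducible peak.

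The chic window is shown along the chic gene (minus strand, chr2L:5981444-5981644), because it is the only reproducible summit of the set with a DRE, the promoter element bound by DREF.
chic summit: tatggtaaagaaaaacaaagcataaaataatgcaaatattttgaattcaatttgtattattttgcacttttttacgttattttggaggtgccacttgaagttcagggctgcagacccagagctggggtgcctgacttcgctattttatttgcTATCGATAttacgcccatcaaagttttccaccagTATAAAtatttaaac
The DRE match TATCGATA starts 52 bp from the summit on the side towards chic. DRE was present in 6.04% of all reproducible windows and in 6.45% of windows centred on a TSS. The same window holds TATAAA, found in 25.6% of reproducible windows.

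In tsr the higher peak lay inside the gene. It was centred in an intron 1453 bp downstream of the only TSS (chr2R:24045167-24045536, gene chr2R:24044453-24046805, minus strand), where the combined signal was 204.8 and the replicates gave 102.1 and 94.4. The ranks were 482, 560 and 562, and the replicate summits were 6 bp apart. No annotated start lay nearer than that of tsr. At the promoter itself, 50 bp upstream, the signal was 89.6, with 44.0 in replicate 1 (rank 2296) and 41.5 in replicate 2 (rank 3095). This promoter peak, like the chic peak and an intron peak of Moe, was outside the strongest 2433 regions of replicate 2. Neither the window at this summit nor the one centred on the tsr TSS held any of the motifs searched.

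Moe (chrX:8873012-8898332, minus strand), the longest gene of the set at 25321 bp, has 8 TSSs and 2 reproducible peaks. One lay 24 bp upstream of the outermost TSS (chrX:8898171-8898540), with a combined signal of 112.7 and replicate signals of 64.8 and 49.9. The other lay in an intron 1752 bp from the nearest TSS (chrX:8896063-8896432), with a combined signal of 91.7 and replicate signals of 43.0 and 43.7. The promoter peak was among the strongest 2433 regions of both replicates and the intron peak only among those of replicate 1. The other 7 combined candidates within 1 kb of a Moe TSS ran from 27.4 to 57.5. An intron candidate 2492 bp from the nearest TSS, at 61.0, ranked 2068 in replicate 1 (46.9) and 26668 in replicate 2 (15.8).

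The Moe promoter window is shown along the gene (chrX:8898303-8898456), because it is the only reproducible summit here with a homeodomain core, TAATTA, the kind of letters that homeobox proteins are known to bind.
Moe promoter summit: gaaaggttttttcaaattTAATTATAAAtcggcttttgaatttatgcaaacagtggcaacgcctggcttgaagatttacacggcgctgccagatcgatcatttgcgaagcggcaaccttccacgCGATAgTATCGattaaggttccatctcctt
TAATTA starts 82 bp from the summit, on the upstream side, and overlaps a TATAAA match. The 2 CGATA cores lie on the other side of the summit. TAATTA was found in 11.3% of all reproducible windows, against 1 of the 10 here, and the paired-class dimer in 1.52%, against 0 of 10.

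The myosin II heavy chain gene zip and the regulatory light chain gene sqh were without a reproducible peak. At zip (chr2R:24990570-25011965, minus strand), 21396 bp long, 8 combined candidates ran from 28.7 to 42.3. The highest lay 12 bp upstream of the first TSS and 85 bp from the TSS of its neighbour uzip, with an authors' q-value of 0.41. Replicate 1 had its highest region 91 bp upstream of an internal TSS (38.2), and replicate 2 had its highest in an intron (38.1), 2071 bp downstream of a TSS. The replicates did not share a leading region. At sqh (chrX:6223061-6225140, minus strand) the only combined candidate, at 48.7 (q-value 0.23), lay 518 bp upstream and 11 bp from the TSS of the neighbouring gene dtn. Replicate 2 listed it at 37.0 and replicate 1 had no region over that summit.

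Across the set the candidates outside the reproducible list were low and often not shared. Of the 50 combined regions, 25 were matched in both replicates, 8 in replicate 1 only and 17 in replicate 2 only. The same split over all 30000 combined regions was not counted, so these numbers are not shown to be particular to the set. All 10 reproducible peaks of the set were matched in both, as were 2363 of all 2433. Of the 10, 6 were among the strongest 2433 regions of both, a share not counted over all reproducible peaks. The replicate summits of the 10 were a median of 25.5 bp apart, against 23.0 bp over all 2363 matched reproducible peaks. The 40 other regions had a median combined signal of 40.7, and the highest was 74.9. Coding exons of the same gene held 14 of the 50 combined summits (28%) and none of the 10 reproducible ones. Coding exons of any gene, a wider measure, held 28.1% of all 30000 candidates and 1.15% of all reproducible peaks. Replicate 2 listed 64 regions at these genes and replicate 1 listed 40, the gap being widest at Moe with 18 and 9.

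**Figure D3:**
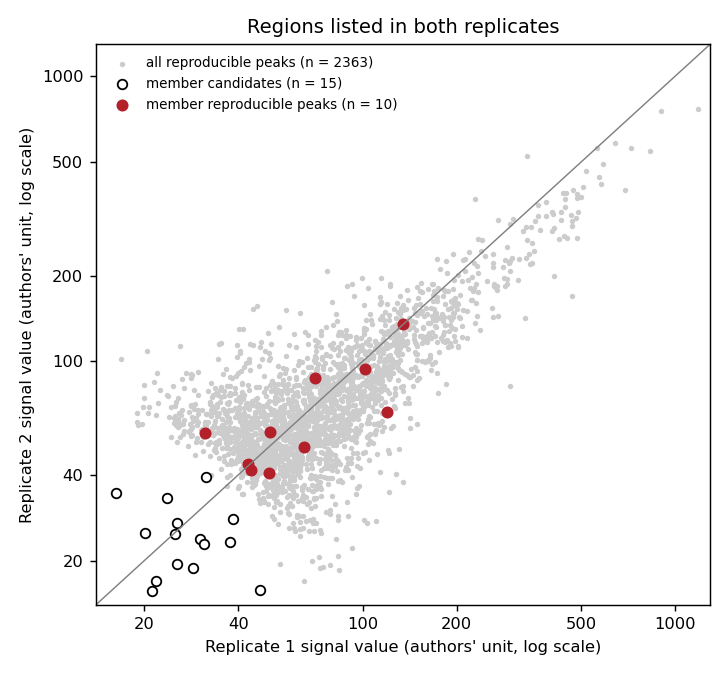
Signal value in replicate 1 (x axis) against replicate 2 (y axis), both in the authors' unit on log scales, for the 25 combined regions of the set that both replicates list and, in grey, for 2363 reproducible peaks of the whole genome. The 10 reproducible peaks of the set (red) fall within the grey cloud and run from 31.2 to 135.2 in replicate 1, above most of the 15 candidates (open).

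The core promoters of the set can be described by the same motif list. In windows of 201 bp centred on each TSS, Ohler motif 1 was found at Act42A, alphaTub84D and sqh, that is at 3 of the 4 genes with no reproducible peak and at 0 of the 6 with one. By window Ohler motif 1 was present at 4 of the 26 TSS windows of the set, against 4.42% of all 19252 protein-coding TSSs. Of these 4, the 2 windows of sqh overlap and hold the same match. TATAAA was found at 5 genes, 3 with a peak (Act5C, alphaTub84B and betaTub56D) and 2 without (zip and sqh). At Act5C 2 overlapping matches, on opposite strands, started 26 and 24 bp upstream of the TSS, at alphaTub84B 25 bp and at betaTub56D 26 bp. At zip the match started 63 bp downstream of the TSS. By window TATAAA was present at 6 of 26, against 26.9% of all TSS windows, and the 2 overlapping sqh windows share a match here too. GAGAG was found at a TSS of 5 of the 6 genes with a peak and 2 of the 4 without, and TAATTA at none. The genes have 1 to 8 TSSs each, and by window GAGAG was present at 11 of 26, against 25% of all TSS windows, and TAATTA at 0 of 26, against 9.39%. These matches were noted with the peaks already known, and no relation of motif to peak was tested.

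**Figure D4:**
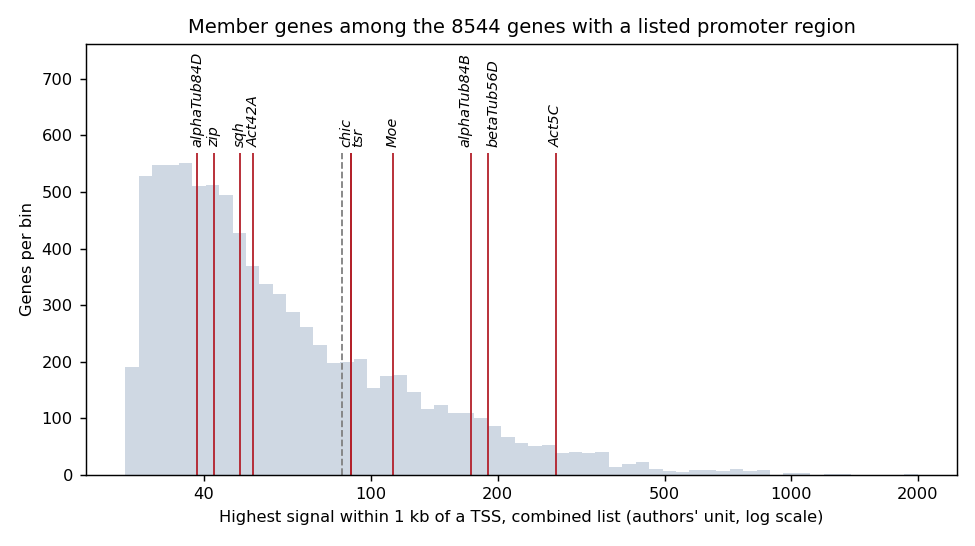
Number of genes per bin (y axis) by the highest signal within 1 kb of a TSS in the combined list (x axis, authors' unit, log scale) for the 8544 genes with such a region. Red lines, whose height has no meaning, mark the 10 genes, from alphaTub84D at 38.6 to Act5C at 274.9, and the dashed line marks the weakest reproducible peak at 85.4.

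By promoter signal alone, 96.5% of the 8544 genes with a promoter region were lower than Act5C, 92.9% were lower than betaTub56D and 91.3% lower than alphaTub84B. Moe (82.3%), tsr (75.8%) and chic (75.8%) followed. Act42A (53.1%), sqh (47.9%), zip (37.2%) and alphaTub84D (29.95%) lay around or under the middle. The values of betaTub56D, chic and sqh came from summits nearer to the TSS of a neighbour, namely CG7744, eIF4A and dtn. The betaTub56D peak at its own TSS had a signal of 99.9. The median over the 10 genes was 89.5, against 50.1 over the 8544. The 10 reproducible peaks of the set were moderate ones, with a median signal of 109.1 against 128.1 over all 2433, whose highest was 1939.5.

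Other genes of the cytoskeleton were counted in 4 lists, 60 genes in all, of which 15 were promoter-bound (25%, against 15.8% of all genes). Among 11 other actin and tubulin genes 2 were bound (18.2%, against 15.8% of all genes), both tubulins. These were gammaTub23C of the microtubule-nucleating complex (149.8, with 81.5 in replicate 1 and 71.6 in replicate 2) and betaTub97EF (121.8). None of the alpha tubulin genes alphaTub67C and alphaTub85E and none of the beta tubulin genes betaTub60D and betaTub85D was bound. Among 21 actin assembly genes 3 were bound (14.3%, against 15.8% of all genes). They were Arp3 (216.5) and Arpc4 (93.2) of the branching complex and its activator WASp (167.9). Arp2, Arpc1, Arpc2, Arpc3A, Arpc3B and Arpc5 had no reproducible promoter summit. With each summit given only to the gene with the nearest TSS, Arp3 lost its peak.

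Myosin, cross-linker and ERM control genes had the highest bound share of the 4 lists, 7 of 14 (50.0%, against 15.8% of all genes). The leading ones were jar, the gene of myosin VI (231.1, with 138.5 in replicate 1 and 89.4 in replicate 2), didum, that of myosin V (219.9, with 105.0 and 119.8), Mer, that of Merlin (160.6), and the GTPase gene Rho1 (150.6, 13 bp upstream of its TSS). Rok (140.3), Actn (109.6) and flw (99.8) completed the list. Rho1 and Rok, known as activators of myosin II, had reproducible promoter peaks, while zip and sqh did not. A relation between these genes was not tested. Mlc-c, the gene of the essential light chain, had no promoter region in any of the 4 lists of regions. With each summit given only to the gene with the nearest TSS, 3 of these 14 stayed bound (Rho1, Mer and jar), against 10.9% of all genes, the same share as the 3 of 14 microtubule-associated and motor genes. Among 14 microtubule-associated and motor genes 3 were bound by the 1 kb rule (21.4%, against 15.8% of all genes). They were tacc, a centrosomal protein gene (191.0), chb, the CLASP gene (161.3), and Dhc64C, the dynein heavy chain gene (104.3).

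**Figure D5:**
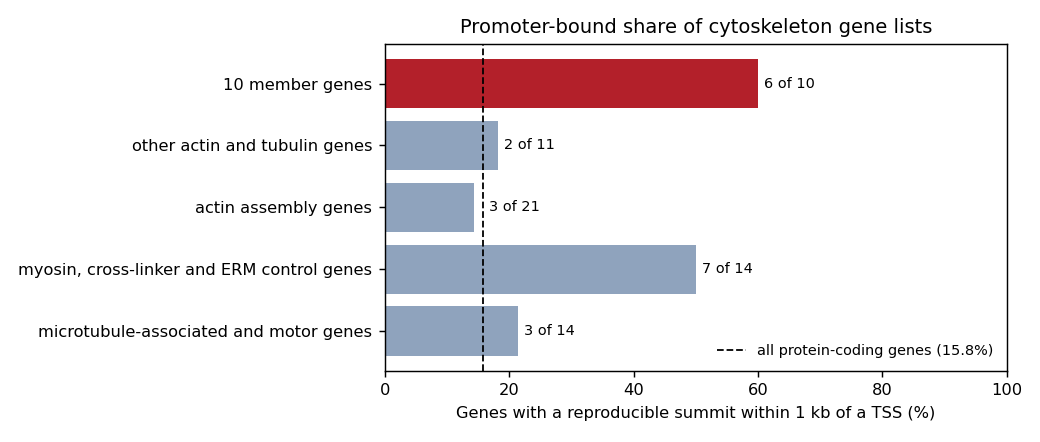
Share of genes with a reproducible summit within 1 kb of a TSS (x axis, percent) for the 10 genes (red) and 4 lists of other cytoskeleton genes (blue), with the count beside each bar. The dashed line is the share over all protein-coding genes, 15.8%; the bars run from 3 of 21 actin assembly genes to 6 of the 10 genes.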

How the data were processed

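The authors deposited region lists in narrowPeak form on dm6, 1 per replicate, 1 for both combined and 1 of peaks that passed an irreproducible discovery rate threshold, per the names of the deposited files. Column 7 of these lists is the deposited signal value of a region, in a unit not given in the sources used here, and column 9 is −log10 of the authors' q-value. Aligner, peak caller, depth and control libraries are not given or not analysed here, so no counting error can be stated, and dm3 lists were not used. Summits were assigned to Ensembl release 115 gene models (all transcripts of protein-coding genes, 19252 distinct TSSs), with coordinates counted from 1. A region of a replicate matched a combined region when it held its summit. Sequences came from the RefSeq dm6 genome, and motifs were matched on both strands in windows of 201 bp. No test was run, since there is 1 group and genes are not replicates. The gene counts were recomputed with other windows, lists and gene assignment, and without each replicate. The highest signals and the distances of leading summits were recomputed only without each replicate, and the other results were not recomputed. All 10 genes are named. Of 61 symbols in the other lists 60 matched (Nherf1 did not), and up to 4 bound genes per list were to be named by signal, and the remaining 3 of the myosin list and genes named as unbound were named after their values were seen. The genes, lists and motifs were chosen with earlier results of these data known. Python 3.11.15, numpy 2.4.6, pandas 2.3.3, Biopython 1.88 and matplotlib 3.10.9 were used, and the assignment was tested on simulated data.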

Additional observations from a re-analysis of the deposited data

How the results depend on the processing

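The count of 6 promoter-bound genes of 10 became 5 with a 500 bp window (13.6% of all genes) or the nearest TSS only (10.9%), chic being lost in both, 7 with a 2 kb window (19.2%, Act42A gained) and 3 in the 1216 stronger reproducible peaks (Act5C, alphaTub84B and betaTub56D), where 8.63% of all genes were bound. It stayed at 6 by region overlap (16.4% of all genes), with the gene's 5' end only (14.5%) and with the strongest combined candidates (15.8%). It was 5 without replicate 1 (15.3%, tsr lost, chic counted through another region) and 6 without replicate 2 (15.8%). With gene bodies counted it ran from 4 to 7. There the share of all genes was 18.0% in the main setting and is not given for the other settings. Among the stronger peaks betaTub56D counted only through the summit nearer to the TSS of CG7744. The summit that Act42A gained lies over 1 kb from its TSS, and its distance to the neighbouring gene Pngl is not given. The highest promoter signal of Pngl was 113.0 in the combined list. The 15 bound of 60 other cytoskeleton genes ran from 10, with the nearest TSS only (10.9% of all genes) or the stronger peaks (8.63%), to 18 with a 2 kb window (19.2%). The replicate 1 list alone kept 13 of the 15. The median of the highest signals, 101.1 in the combined list, was 57.4 without replicate 2 and 56.3 without replicate 1. The lists differ in scale, their weakest regions being at 15.9, 14.8 and 27.2 in replicate 1, replicate 2 and the combined list. The median distance of the leading summit from a TSS, 522 bp, was 422 and 593.5 bp. Depth is unknown, so an unlisted region is not shown to lack signal.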

Other observations

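In 3 actin assembly genes the reproducible summit lay inside the gene and over 1 kb from any of its TSSs, as at the intron peak of tsr. They were ena (180.6), an actin filament elongation factor gene, spir (121.8), a filament nucleator gene, and Arp2 (86.1) of the branching complex. They were picked after their values were seen. Counting them, 6 of 21 actin assembly genes held a reproducible summit, against 18.0% of all genes.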
